A study of Mus musculus with 16 samples.

Results

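The genes described here are Angpt1, Angpt2, Tek, Tie1 and Ptprb, which encode the angiopoietins, the Tie receptors and a receptor phosphatase that acts on them. They were chosen by gene name, and they are 5 of the 54532 genes in each of the expression tables. Bulk RNA-seq was performed on mouse pulmonary endothelial cells (ECs), selected from digested lungs with magnetic beads as CD31+ cells after CD45+ cells had been removed. In the first experiment, male wild-type (WT) C57BL/6J mice, 8 weeks of age, received saline (n = 4) or 10 mg/kg LPS (n = 6) into the trachea. LPS, or lipopolysaccharide, is an outer membrane component of Gram-negative bacteria, and it causes acute lung injury (ALI) when it is instilled into the airways. In the second experiment, Fgfr1 loxP/loxP mice (n = 3) and littermates with VE-cadherin-CreERT2, in which tamoxifen deleted Fgfr1 from ECs (Fgfr1 iΔEC/iΔEC, n = 3), all received 2 mg/kg LPS after tamoxifen, which was given to either genotype. RNA was taken 24 h after instillation in every group. There was no saline group in the second experiment, and recombination depends on where VE-cadherin is expressed. The paper describes the mice with the deletion as adult, and no age in weeks is given for either genotype in the sources used here.

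Angiopoietins are secreted ligands of Tek, a receptor tyrosine kinase also called Tie2, which is found mainly on ECs. Angpt1, made largely by pericytes, smooth muscle and other mesenchymal cells, activates Tek and favours a quiescent, tight endothelium through AKT, which keeps the transcription factor Foxo1 out of the nucleus. Angpt2 is made by ECs, is stored in Weibel-Palade bodies, and can act as a weak agonist or as an antagonist of Tek. Tie1 is a related receptor that binds no angiopoietin strongly by itself and modulates Tek within a complex. Ptprb, also called VE-PTP, removes phosphate from Tek and associates with VE-cadherin. In the lung this pathway is known for its part in vascular leak during ALI and sepsis.

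Tek and Tie1 lie on chromosome 4 of GRCm38, the build of the files. Tek (ENSMUSG00000006386) spans chr4:94739289-94874976 on the forward strand and Tie1 (ENSMUSG00000033191) spans chr4:118471191-118490061 on the reverse strand. Ptprb (ENSMUSG00000020154) spans chr10:116275523-116389535 on the forward strand. Angpt2 (ENSMUSG00000031465) spans chr8:18690263-18741562 on the reverse strand, within the gene Mcph1 on the opposite strand, and shares 0 exonic bases with it. Angpt1 (ENSMUSG00000022309) spans chr15:42424723-42676977 on the reverse strand. Of its 5205 exonic bases, 737 are shared with the antisense gene Gm17473. The strandedness of the counting is not given in the sources used here, so reads in the shared bases cannot be told apart by strand, and Gm17473 itself held 0 to 13 reads per library.

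RefSeq promoter sequence was matched for only 2 of the 5 genes, Tek and Tie1, so these 2 are shown. The 250 bases before the Tek start, at chr4:94739039-94739288 of GRCm38.p6 on the forward strand, and the 38 bases at chr4:118490062-118490099 on the reverse strand that lie before the annotated Tie1 gene are printed 5′ to 3′. Capitals mark GGAA or its complement TTCC, the core letters bound by ETS factors such as Erg, a transcription factor of ECs.
Tek: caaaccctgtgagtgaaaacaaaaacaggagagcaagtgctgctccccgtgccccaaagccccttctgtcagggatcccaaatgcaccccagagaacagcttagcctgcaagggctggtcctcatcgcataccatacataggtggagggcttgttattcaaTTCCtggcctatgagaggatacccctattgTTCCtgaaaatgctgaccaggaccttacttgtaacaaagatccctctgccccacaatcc
Tie1: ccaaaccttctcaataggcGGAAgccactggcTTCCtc

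The core was found 2 times in the Tek window and 7 times in the 250 bases before the RefSeq start of Tie1, of which 212 bases lie in an annotated exon and are not printed. GGAA is frequent, on either strand, in windows of this length. Of 32536 promoters 93.4% held it, with a median count of 3, 76.9% held it at least 2 times and 3.82% held it at least 7 times. The longer ETS letters AGGAAG, which contain the core, occurred 1 time in the Tie1 window, 0 times in the Tek window and in 29.6% of all promoters. AGATAA for GATA factors (9.97% of promoters), the NF-kB motif (0.36%) and GTAAACA for FOXO factors (3.17%) were searched on both strands and were not among the letters of either window. These matches describe letters and not sites in use.

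Levels are given as FPKM, the fragments on a gene per kb of its length, scaled between libraries, so genes can be compared with each other within a table. The deposited values were within 0.182% of median-of-ratios scaling, and were not scaled on the total of the gene-assigned reads. Gene-assigned reads came to 13478726 to 18807007 per saline library, 17840221 to 19043015 per LPS library, 15969575 to 17002788 per Fgfr1 loxP/loxP library and 16642177 to 16943522 per Fgfr1 iΔEC/iΔEC library. At this depth Tek, Tie1 and Ptprb rested on at least 5582 reads in every library. Angpt1 rested on 78 to 561 reads and Angpt2 on 276 to 3741 reads per library. The EC label was examined with 10 endothelial markers. Pecam1, which encodes CD31, was read at 400 ± 81.5 FPKM in saline (SD, n = 4) and 358 ± 76.8 in LPS libraries (SD, n = 6), and Cdh5, which encodes VE-cadherin, at 710 ± 56.0 and 394 ± 97.6 FPKM.

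Several libraries stood apart before any comparison. LPS replicate 1 had the lowest summed level of the endothelial markers, 1608 FPKM, whereas the other LPS libraries had 2469 to 3795 FPKM. Saline replicate 3 was low in the lymphocyte and fibroblast lists, with summed levels of 22.0 and 36.1 FPKM. Saline replicate 1 held 1380 FPKM of neutrophil markers, and the other saline libraries held 69.5 to 307 FPKM. Values without these libraries are given below for the 5 genes, the ratios and the lists of marker and pathway genes.

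In saline libraries, the receptors and the phosphatase were among the most abundant transcripts, and they stood at similar levels. Tek was at 264 ± 12.6 FPKM, Ptprb at 264 ± 24.3 FPKM and Tie1 at 263 ± 18.1 FPKM (SD, n = 4 each). They ranked 95, 96 and 98 among 14893 genes tested, and their order was within the spread between libraries. Angpt2 followed at 15.2 ± 7.14 FPKM (rank 3210) and Angpt1 at 4.18 ± 1.76 FPKM (rank 8183). Angpt4, a further ligand of Tek, was at 0 to 0.324 FPKM, or 0 to 10 reads, in the first experiment and was not tested.

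**Figure D1:**
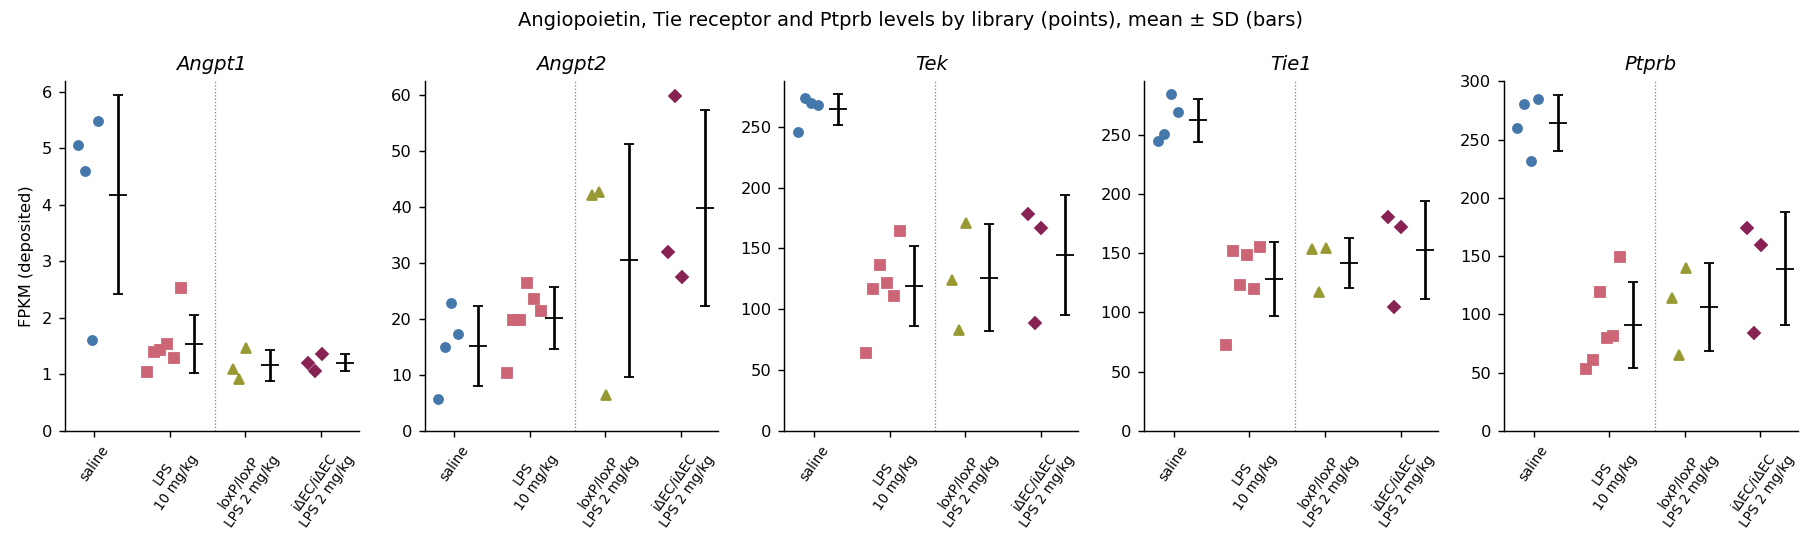
Each panel plots the deposited FPKM (vertical axis, linear, from 0) of a gene in every library, as points by group, with the mean and SD as bars. The dotted line separates the experiments, whose tables were normalized separately. Tek, Tie1 and Ptprb sit at 232 to 285 FPKM in saline and at 52.6 to 164 FPKM in LPS libraries, while the Angpt2 groups overlap.

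To examine how LPS-induced ALI affected these genes, LPS libraries were compared with saline libraries on log2(FPKM + 1) with limma and Benjamini-Hochberg adjustment over all 14893 genes that averaged 0.5 FPKM or more. A gene was called at an adjusted p at or under 0.05. Tek, Tie1, Ptprb and Angpt1 fell and Angpt2 was not called, so 4 of 5 genes were called lower. This count stands against a large background, since 53.2% of all genes were called in either direction, 23.7% were called lower and 6.79% were called lower by at least 1 on the log2 scale. The split of all calls was 4399 genes higher and 3529 lower, and it turned to 3464 higher and 4678 lower with scaling on total reads.

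Ptprb showed the largest fall of the 5 genes. Its level was 260, 281, 232 and 285 FPKM in the saline libraries and 52.6, 60.9, 119, 79.5, 81.3 and 150 FPKM in the LPS libraries. The groups did not overlap, and LPS replicates 3 and 6 retained more Ptprb than the others. The mean was 264 ± 24.3 FPKM in saline and 90.5 ± 37.0 in LPS, which was 2.92-fold lower. The log2 fold change was -1.62 (SE 0.27, 95% interval -2.21 to -1.04, limma adjusted p = 0.000509), and it ranked 201 among all genes tested by the size of the fall.

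Tek, the angiopoietin receptor, was read at 246, 274, 270 and 268 FPKM in saline and at 64.4, 116, 136, 121, 111 and 164 FPKM in LPS libraries. Every LPS library lay under every saline library, with LPS replicate 1 the lowest and LPS replicate 6 the highest of its group. The mean fell from 264 ± 12.6 to 119 ± 32.9 FPKM, 2.22-fold lower, and the log2 fold change was -1.20 (SE 0.22, interval -1.69 to -0.71, limma adjusted p = 0.00108).

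Tie1, the partner receptor, was read at 245, 251, 285 and 269 FPKM in saline and at 72.7, 152, 124, 148, 120 and 155 FPKM in LPS libraries. The groups were apart here too, and LPS replicate 1 lay well under its group. The mean fell from 263 ± 18.1 to 129 ± 31.3 FPKM, 2.04-fold lower, and the log2 fold change was -1.07 (SE 0.21, interval -1.52 to -0.61, limma adjusted p = 0.00151). For each of these 3 genes the two-sided exact permutation p was 0.00952, the smallest that 4 libraries against 6 can give. Groups that do not overlap were found for 39.4% of all genes tested. The relative spread of the 3 genes was wider after LPS. The coefficient of variation was 4.78%, 6.90% and 9.20% for Tek, Tie1 and Ptprb in saline and 27.7%, 24.3% and 40.8% in LPS, a difference that was not tested. Without LPS replicate 1 it was 16.6%, 12.1% and 36.4% in LPS.

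Without LPS replicate 1 the log2 fold changes were -1.49 for Ptprb, -1.03 for Tek and -0.91 for Tie1, and without saline replicate 3 they were -1.69, -1.19 and -1.03. All of them remained called in limma (adjusted p up to 0.00596). In bulk samples, fewer cells of a type and less RNA per cell cannot be told apart. When libraries were scaled so that the 10 endothelial markers had the same mean in each, the log2 fold changes were -1.14 for Ptprb, -0.72 for Tek and -0.59 for Tie1, and all 3 remained called (limma adjusted p up to 0.00861). Quantile normalization instead gave -2.18 for Ptprb, -1.76 for Tek and -1.65 for Tie1.

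**Figure D2:**
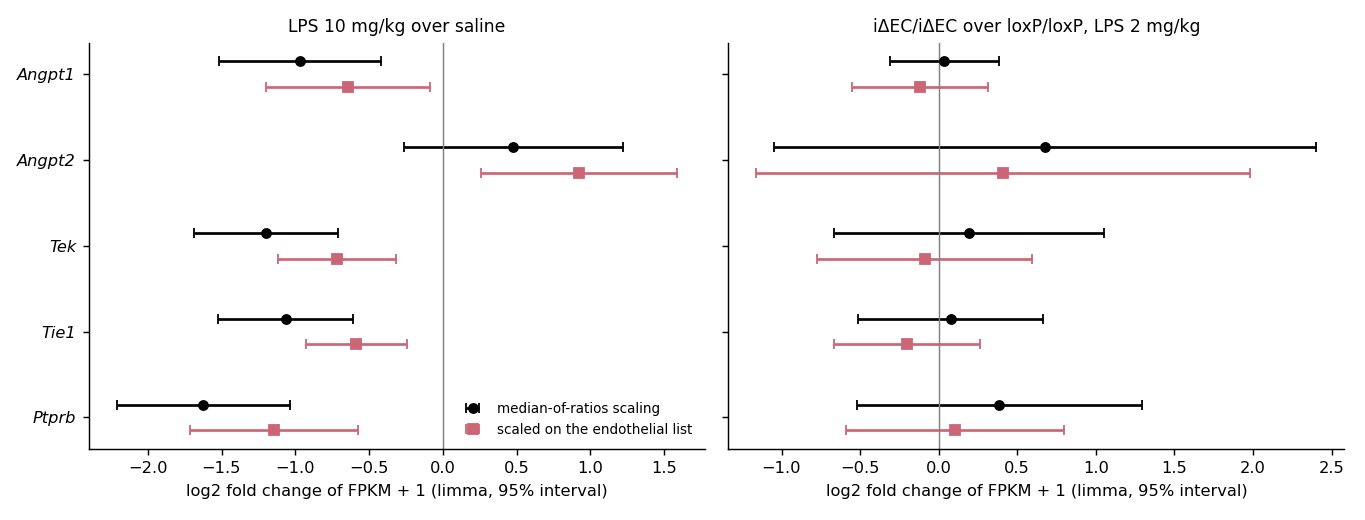
Log2 fold changes of FPKM + 1 (horizontal axis) with 95% limma intervals as bars, for LPS over saline (left) and iΔEC/iΔEC over loxP/loxP (right). Circles show median-of-ratios scaling and squares scaling on the endothelial list. On the left the intervals of Ptprb, Tek and Tie1 lie under 0 in either scaling, and on the right all intervals cross 0.

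Angpt1, the activating ligand, was a scarce transcript of the EC fraction. It was read at 5.05, 4.59, 1.60 and 5.48 FPKM in saline and at 1.04, 1.39, 1.43, 1.54, 1.28 and 2.52 FPKM in LPS libraries. Saline replicate 3 lay among the LPS libraries, so the groups overlapped. The mean was 4.18 ± 1.76 FPKM in saline and 1.53 ± 0.512 FPKM in LPS, 2.72-fold lower. The log2 fold change of FPKM + 1, which understates the change of a low gene, was -0.97 (SE 0.25, interval -1.52 to -0.42, limma adjusted p = 0.00712, two-sided exact permutation p = 0.0190). It was -1.27 without saline replicate 3 (limma adjusted p = 0.000246). With scaling on the endothelial markers the log2 fold change was -0.64, and the call was lost (limma adjusted p = 0.0571).

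Angpt2, the context-dependent ligand, did not pass the test. It was read at 5.65, 15.0, 22.8 and 17.3 FPKM in saline and at 10.2, 19.8, 19.8, 26.4, 23.5 and 21.3 FPKM in LPS libraries. Saline replicate 1 and LPS replicate 1 were the lowest of their groups, and the groups overlapped. The mean was 15.2 ± 7.14 FPKM in saline and 20.2 ± 5.48 FPKM in LPS. The log2 fold change was 0.48 with an interval of -0.27 to 1.22 (SE 0.34, limma adjusted p = 0.252, two-sided exact permutation p = 0.295). It was 0.10 without saline replicate 1, 0.71 without saline replicate 3 and 0.65 without LPS replicate 1. Scaling on the endothelial markers gave 0.92, and Angpt2 was then called higher (limma adjusted p = 0.0259). Mcph1, the gene in which Angpt2 lies, was at 0.810 ± 0.161 FPKM in saline and 0.959 ± 0.0769 FPKM in LPS, a log2 difference of 0.12 (limma adjusted p = 0.364).

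Ratios between these genes within a library do not depend on library scaling apart from the pseudocount, and 3 ratios were tested per experiment. The FPKM ratio of Angpt2 to Angpt1 was 1.12, 3.27, 14.2 and 3.15 in saline libraries, and 9.80, 14.3, 13.8, 17.1, 18.3 and 8.45 in LPS libraries. Saline replicate 3 alone among the saline libraries reached the LPS range. The log2 ratio was 1.59 ± 1.25 in saline and 3.03 ± 0.40 in LPS, a difference of 1.45 that did not pass after adjustment over the 3 ratios (exact permutation p = 0.0476, adjusted p = 0.0714). Without saline replicate 3 the difference was 1.98 (adjusted exact permutation p = 0.0357), and it was 0.96 when saline replicate 1 was left out (adjusted exact permutation p = 0.179).

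The FPKM ratio of Ptprb to Tek was 1.06, 1.03, 0.859 and 1.06 in saline libraries and 0.818, 0.523, 0.875, 0.655, 0.735 and 0.911 in LPS libraries. The log2 ratio differed by -0.43 (exact permutation p = 0.0286, adjusted p = 0.0714), and by -0.50 without saline replicate 3 (adjusted exact permutation p = 0.0357). The phosphatase was thus lower relative to its receptor in LPS means, by an amount that passed only without that library. The log2 ratio of Tie1 to Tek was -0.01 ± 0.08 in saline and 0.12 ± 0.20 in LPS, and the difference of 0.13 did not pass (exact permutation p = 0.257).

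**Figure D3:**
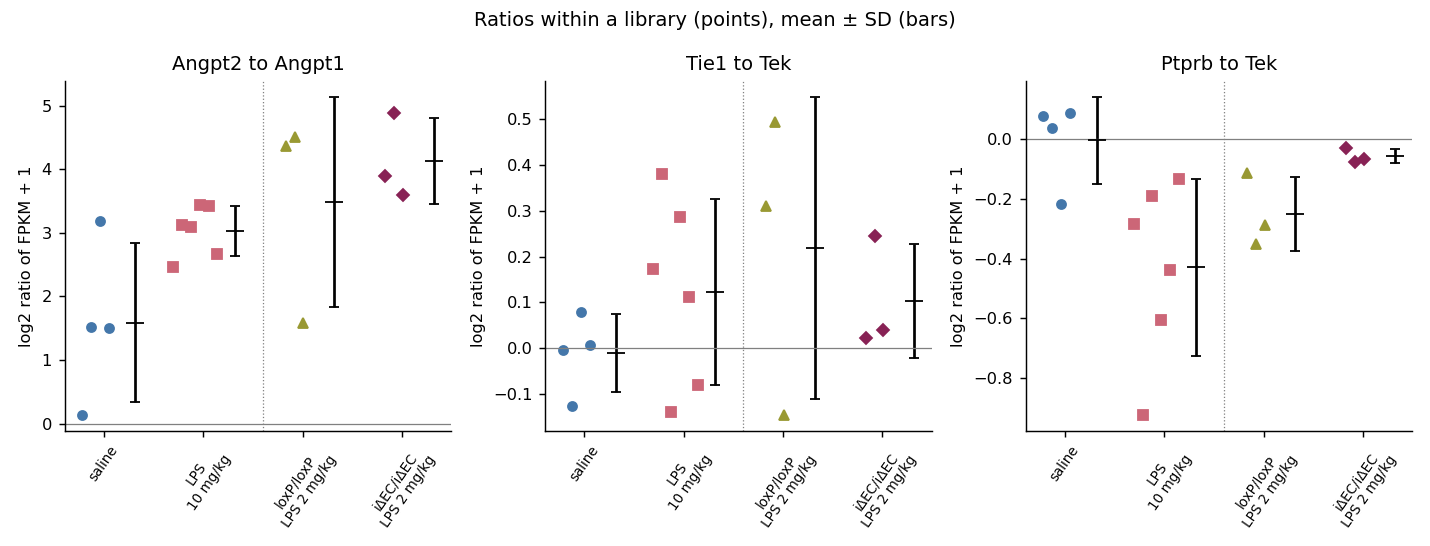
Log2 ratios of FPKM + 1 within each library (vertical axis) for Angpt2 to Angpt1, Tie1 to Tek and Ptprb to Tek, as points by group with the mean and SD as bars. Saline replicate 3 sits inside the LPS range for Angpt2 to Angpt1 (3.19) and for Ptprb to Tek (-0.22).

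The levels of cell type markers moved with LPS as well. The counts of called markers stand beside 29.5% of all genes called higher and 23.7% called lower, and a list with a share near these, such as 2 of 9 epithelial markers called lower, is not set apart by its count. The mean log2(FPKM + 1) of the 10 endothelial markers was lower by 0.48 in LPS libraries (7.99 against 7.51, adjusted exact permutation p = 0.0357 over 15 lists), and 4 of 10 markers were called lower and 0 higher. With quantile normalization 10 of 10 were called lower, and with scaling on these markers themselves 0 were. With most single libraries left out the endothelial list did not pass (adjusted exact permutation p up to 0.0893), at differences of -0.55 to -0.33. The list's most abundant gene, Cldn5, a tight junction protein, was at 1533 FPKM in saline and 1058 FPKM in LPS. Leukocyte markers differed by 2.74 (adjusted exact permutation p = 0.0238), with 6 of 6 called higher and a summed level of 60.0 to 224 FPKM in saline and 593 to 1436 FPKM in LPS. Coro1a was the most abundant of them, and Ptprc, which encodes the CD45 used to deplete leukocytes, was at 6.97 FPKM in saline and 34.6 FPKM in LPS. Neutrophil markers differed by 2.65 (adjusted exact permutation p = 0.0357, 7 of 8 called higher, summed 69.5 to 1380 and 1293 to 6638 FPKM, led by S100a9). This list, too, did not pass with most single libraries left out (adjusted exact permutation p up to 0.0893), at differences of 2.24 to 3.33. Macrophage markers differed by 2.71 (adjusted exact permutation p = 0.0238, 6 of 8 called higher and 1 lower, summed 425 to 1196 and 2181 to 4719 FPKM, led by Lyz2). The part of this shift in the levels of Tek, Tie1 and Ptprb was not tested. Scaling on the mean of the 10 endothelial markers left their calls and made their log2 fold changes smaller, as given above.

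Markers of capillary and arterial ECs were lower together with the receptors. Aerocyte markers, for the large capillary ECs at alveoli, differed by -1.35 (4 of 6 called lower, summed 480 to 724 and 128 to 355 FPKM, led by Car4). General capillary markers differed by -1.23 (2 of 5 called lower, summed 1574 to 2000 and 745 to 1572 FPKM, led by Plvap), and arterial markers by -1.26 (5 of 6 called lower, summed 435 to 494 and 105 to 243 FPKM, led by Efnb2). The adjusted exact permutation p was 0.0238 for each of the 3 lists. Aplnr, a general capillary receptor, was at 115 FPKM in saline and 7.32 FPKM in LPS (log2 fold change -3.84, limma adjusted p = 1.1e-06), and it weighs on the list mean. The median log2 fold change of the list was -0.62, with Kit (-1.41) called lower and Gpihbp1 (-0.62), Plvap (-0.55) and Cd93 (0.26) not called. With scaling on total reads or quantile normalization 4 of these 5 genes were called lower, and with scaling on the endothelial markers 2 were called lower and 1 higher, with a median of -0.14. Venous markers differed by 0.02 on the mean with a median log2 fold change of -0.39 (adjusted exact permutation p = 0.971, 2 of 6 called higher and 3 lower, summed 167 to 291 and 73.9 to 184 FPKM, led by Ephb4). Lymphatic markers differed by 0.11 (adjusted exact permutation p = 0.633, 1 of 3 tested called higher, led by Lyve1, with Prox1 under 1 FPKM in all libraries, summed 241 to 1240 and 326 to 803 FPKM). Their median of 0.31 turned to -0.22 with quantile normalization, and the venous median turned to 0.02 with scaling on the endothelial markers. Ccl21a, a lymphatic marker left out because it matched 2 rows, had a row called lower (log2 fold change -1.50, limma adjusted p = 0.0279).

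Other lung cells were also read in the fraction. Fibroblast markers differed by -0.47 (adjusted exact permutation p = 0.0476, 4 of 6 tested called lower, summed 36.1 to 62.4 and 19.3 to 45.8 FPKM, led by Col3a1), and mural markers by -0.50 (adjusted exact permutation p = 0.143, 3 of 7 called lower, summed 36.1 to 131 and 33.2 to 69.8 FPKM, led by Acta2). The fibroblast list did not pass with most single libraries left out (adjusted exact permutation p up to 0.119). Platelet and megakaryocyte markers differed by 0.76 (adjusted exact permutation p = 0.0238, 3 of 5 tested called higher, summed 19.2 to 47.0 and 47.9 to 141 FPKM, led by Pf4). Lymphocyte markers differed by -1.06 (adjusted exact permutation p = 0.114, 3 of 5 tested called lower, summed 22.0 to 146 and 13.2 to 54.8 FPKM, led by Cd79a, with Cd3e under 1 FPKM in all libraries). Epithelial markers differed by -0.54 (adjusted exact permutation p = 0.286, 2 of 9 tested called lower, summed 1068 to 2845 and 263 to 941 FPKM, led by Sftpc). All 4 mesothelial markers, led by Msln, were under 1 FPKM in every library and 0 were tested; the list differed by 0.03 (adjusted exact permutation p = 0.341). With scaling on the endothelial markers 0 fibroblast markers were called lower and 1 higher, 2 mural markers lower and 1 higher, 1 lymphocyte marker lower, and 1 epithelial marker lower and 1 higher (median 0.02), and with quantile normalization 4 epithelial markers were called lower. With 3 libraries against 6 the exact permutation p cannot go under 0.0238, and over 15 lists this passes only where at least 8 lists reach it. Without saline replicate 1, 2 or 4 fewer lists reached it, so no list passed (adjusted exact permutation p of at least 0.0510), which says nothing about stability. With any single library left out, the difference was 2.42 to 3.05 for the leukocyte, 2.24 to 3.33 for the neutrophil, 2.62 to 2.81 for the macrophage and 0.61 to 0.88 for the platelet list. It was -1.46 to -1.15 for the aerocyte, -1.28 to -1.10 for the general capillary, -1.33 to -1.12 for the arterial, -0.55 to -0.33 for the endothelial and -0.60 to -0.38 for the fibroblast list. Of the lists that had not passed, it was -1.53 to -0.86 for the lymphocyte, -0.79 to -0.23 for the epithelial, -0.69 to -0.30 for the mural, -0.22 to 0.28 for the venous and 0.01 to 0.30 for the lymphatic list. Without saline replicate 1 the epithelial difference was -0.23 and the median of its genes turned from -0.37 to 0.14, and the lymphatic difference was 0.30. Without saline replicate 3, the lymphocyte list (-1.53) and the mural list (-0.69) passed (adjusted exact permutation p = 0.0397).

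The co-variation of the genes within groups was described from deviations from the group means over all 16 libraries. These libraries share their isolation and depth, so the values are descriptions. The deviations of Tek correlated with those of Ptprb (r = 0.91) and Tie1 (r = 0.89), and those of Tie1 with Ptprb (r = 0.67). All 3 followed the general capillary list, with r = 0.90 for Tek, 0.94 for Tie1 and 0.73 for Ptprb. In the same order, r was 0.69, 0.91 and 0.48 with the endothelial list and 0.77, 0.88 and 0.58 with the aerocyte list. It was 0.75, 0.88 and 0.58 with the arterial list and 0.24, 0.34 and 0.31 with the venous list. For Angpt1, r was highest with the mural (0.75), fibroblast (0.71), venous endothelial (0.61) and lymphocyte (0.57) lists. It was 0.26 with the general capillary list, 0.21 with the endothelial list and 0.52 with Ptprb. Over the pooled libraries Angpt2 deviated with none of the other 4 genes (r between -0.33 and 0.05), and its r with the endothelial list was 0.22. Its r was -0.56 with the platelet and megakaryocyte list and -0.43 with the leukocyte list. For Angpt2 loxP/loxP replicate 3 lay at 2.88 on the log2(FPKM + 1) scale, against 5.43 and 5.45 in its group. For Angpt1 saline replicate 3 lay at 1.38, against 2.48 to 2.70 in its group. That library was also low in the lymphocyte and fibroblast lists, so it weighs on the r of Angpt1 with them. The correlations were not computed without either library or within single groups.

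**Figure D4:**
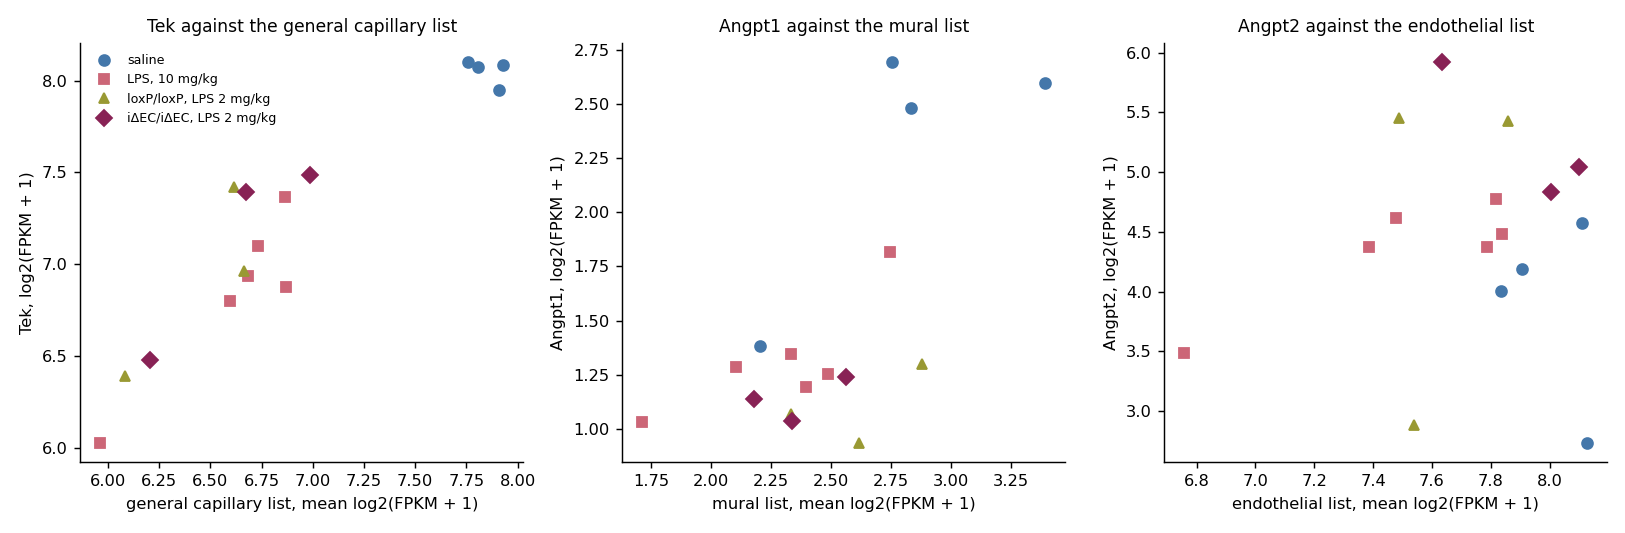
Levels per library on the log2(FPKM + 1) scale: Tek against the mean of the general capillary markers, Angpt1 against the mural markers and Angpt2 against the endothelial markers, with symbols for the 4 groups. The saline libraries sit at the upper right for Tek, and saline replicate 3 lies with the LPS libraries for Angpt1.

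Genes most like each of the 5 were ranked by Pearson's r among 10381 genes that averaged 2 FPKM or more. In the 10 libraries of the first experiment, the levels of Angpt1 were most like those of Fzd1 (r = 0.97), Notch3 and Pdgfrb (r = 0.96 each), of which Pdgfrb and Notch3 are mural receptors. In deviations over 16 libraries its nearest genes were Src (r = 0.90), Notch3 (0.89) and Pdgfrb (0.88). Neither set of values was computed without saline replicate 3. Angpt2 was most like E2f6 (r = 0.95), Pdgfb (0.94), an endothelial growth factor that recruits pericytes, and Slc16a13 (0.93). In deviations the r of these genes was 0.57, 0.63 and 0.85. Its nearest genes in deviations were Fam43a (0.93), Zmynd15 (0.90) and Apln (0.87), a tip cell peptide. Their r in the 10 libraries was 0.92, 0.74 and 0.40. The deviations include loxP/loxP replicate 3, which lay far under its group for Angpt2. Tek was most like Pomt2, Egflam and Pxdn (r = 0.99 each), and in deviations like Clstn1 (0.97), Mtss1l and Fgf1 (0.95 each). Tie1 was most like Tspan12, Cav1 and Afap1l1 (r = 0.99 each), and in deviations like Cav1 (0.98), the caveolar coat protein, Acvrl1 (0.98) and Jup (0.97). Ptprb was most like Ttc3 (r = 0.997), Unc13b and Nckap5 (r = 0.99 each), and in deviations like Nckap5 (0.98), Sptbn1 (0.97) and Il17rd (0.96).

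Other genes of the pathway were read from fixed lists, beside a median log2 fold change of 0.01 over all genes tested. These counts, too, are to be read against 29.5% of all genes called higher and 23.7% called lower, and 6 of 9 adaptors and 5 of 10 PI3K, AKT and FOXO genes were called in either direction, beside 53.2% of all genes. Without saline replicate 1, saline replicate 3 or LPS replicate 1, the list medians given here kept their signs, and those that moved by over 1.5 times were the adaptors (0.08 to 0.17) and the PI3K, AKT and FOXO genes (-0.28 to -0.17). Of the other ligands and co-receptors, 3 of 4 tested were called higher and 0 lower, with a median of 0.64. These were the integrin subunits Itgav (0.75), Itga5 (0.68) and Itgb1 (0.61), of which only Itgav kept its call under quantile normalization, where the median was 0.13. Svep1, an extracellular protein of the pathway, differed by -0.46 on the log2 scale (limma adjusted p = 0.0695), and Angpt4 and Lect2 were too low to test. With scaling on total reads Svep1 was called lower (-0.58, limma adjusted p = 0.0435). With limma-voom, and without saline replicate 3, 1 of the 4 genes was also called lower. All 3 sheddases, which can cleave receptor ectodomains, were called higher, namely Mmp14 (12.7 to 71.9 FPKM, log2 fold change 2.38), Adam17 (0.69) and Adam10 (0.45), although Adam10 lost its call with scaling on total reads and with quantile normalization. Leukocyte, macrophage and platelet markers were higher in the same libraries, and the part of these cells in the integrin and sheddase levels was not tested.

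Inside the cell the lists were mixed. Of 9 tested adaptors of the Tie receptors, 4 were called higher and 2 lower, with a median of 0.09 that turned to -0.10 with scaling on total reads and to -0.05 with quantile normalization and was 0.55 with scaling on the endothelial markers. Dok2 rose from 1.27 to 53.1 FPKM (log2 fold change 4.48), Grb2 and Shc1 had log2 fold changes of 0.93 and 0.57, and Grb14 (-1.21) and Rasa1 (-0.54) fell. Dok2 is also expressed by myeloid cells, whose markers were higher in the same libraries, and their part in the rise was not tested. Of 10 PI3K, AKT and FOXO genes, 1 was called higher (Akt1, log2 fold change 0.62) and 4 lower, with a median of -0.16 that turned to 0.28 with scaling on the endothelial markers, where 2 were called higher and 1 lower. Foxo1, the transcription factor restrained by Tek signaling, fell from 12.7 to 4.80 FPKM (log2 fold change -1.25, SE 0.11, limma adjusted p = 1.1e-05), followed by Pik3r1 (-0.63).

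Of 9 tested genes of the Weibel-Palade body, the granule that stores Angpt2, 3 were called higher and 3 lower, with a median of 0.11 that turned to -0.07 with scaling on total reads and to -0.02 with quantile normalization. With scaling on the endothelial markers 4 were called higher and 1 lower, with a median of 0.54. The adhesion receptor Selp (log2 fold change 2.14), Cd63 (2.02) and Unc13d (1.25) rose, and Vwf, the main granule protein, fell from 81.2 to 39.8 FPKM (-1.05), as did Sytl4 (-0.52). Selp, Cd63 and Unc13d are also found in platelets or leukocytes, and the part of these cells was not tested. Scaling on the endothelial markers ended calls that include those of Rasa1, Pik3r1, Vwf and Sytl4, and quantile normalization those of Shc1 and Akt1. Of 10 tip cell genes, a group to which Angpt2 is often counted, 1 was called higher and 5 lower, with a median of -0.67. With scaling on the endothelial markers 3 were called lower (median -0.24), and with scaling on total reads 7 were (median -0.86). Esm1 (33.1 to 8.11 FPKM, log2 fold change -1.94), Kdr (-1.63) and Flt4 (-1.24) fell furthest and Pgf (1.57) rose.

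Related families were read for comparison. Of 8 other receptor-type phosphatases, 2 were called higher and 4 lower, with a median of -0.55. Ptprm (43.1 to 16.1 FPKM, log2 fold change -1.39), Ptprs (-0.99) and Ptprg (-0.98) fell, while Ptprj (1.96) and Ptpre (1.85) rose. With scaling on the endothelial markers Ptprs (-0.61) and Ptprg (-0.52) lost their calls (limma adjusted p = 0.0624 and 0.0734). Leukocyte markers were higher in the same libraries, and the part of leukocytes in the levels of Ptprj and Ptpre was not tested. Of 12 other endothelial receptor tyrosine kinases, 1 was called higher and 7 lower, with a median of -0.67. Kdr, the main VEGF receptor, Flt4 and Flt1 (-1.13) fell furthest, and Met, the receptor of hepatocyte growth factor, rose (1.32). With scaling on the endothelial markers 1 of the 8 phosphatases (median -0.15) and 3 of the 12 kinases (median -0.23) were called lower, and with scaling on total reads 6 of the 8 phosphatases were. Of 4 tested angiopoietin-like genes, Angptl4 rose (log2 fold change 1.75) and Angptl2 (-1.44) and Angptl8 (-0.96) fell.

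**Figure D5:**
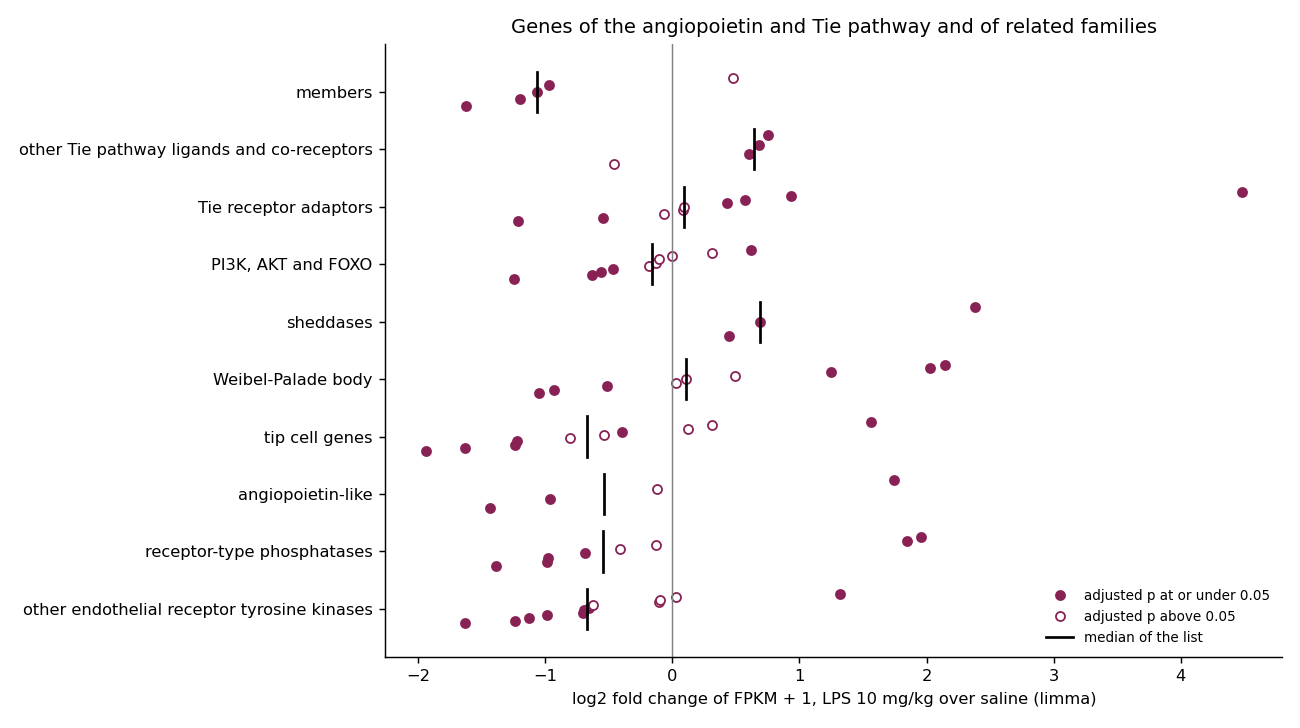
Log2 fold changes of FPKM + 1 for LPS over saline (horizontal axis) of the genes tested in each list. Filled points have a limma adjusted p at or under 0.05, open points have a larger one, and vertical bars mark the median of a list, which is -1.07 for the 5 genes described and 0.64 for the other ligands and co-receptors.

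To examine these genes when endothelial Fgfr1 was deleted during LPS-induced ALI, iΔEC/iΔEC libraries were compared with loxP/loxP libraries. Fgfr1 was read at 2.90, 2.91 and 2.59 FPKM in loxP/loxP and at 0.683, 1.41 and 1.15 FPKM in iΔEC/iΔEC libraries, a log2 fold change of -0.88 (SE 0.16). The groups were apart in the direction of the labels, but the gene was not called over all genes (limma adjusted p = 0.962, exact permutation p = 0.1). With limma, 0 of 14945 genes were called (0%), 661 had an unadjusted p under 0.05, and limma-voom also called 0 with 608 under that limit. With the replicate block limma called 0 with 1154 under that limit, and with single libraries left out it called 0 with 403 to 1072. An exact permutation test of 3 libraries against 3 cannot go under 0.1, and 10.2% of all genes had groups that did not overlap.

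Of the 5 genes, 0 were called and in all of them the groups overlapped. Ptprb was read at 114, 64.9 and 140 FPKM in loxP/loxP and at 174, 83.8 and 159 FPKM in iΔEC/iΔEC libraries, with a log2 fold change of 0.39 and an interval of -0.52 to 1.29. Its level was higher in iΔEC/iΔEC than in the loxP/loxP library of the same replicate number in 3 of 3 pairs. With the replicate number as a block the interval was 0.05 to 0.72, and the gene was still not called over all genes (limma unadjusted p = 0.0331, adjusted p = 0.622). With scaling on the endothelial markers the log2 fold change was 0.11, with an interval of -0.59 to 0.80. The endothelial, aerocyte and general capillary marker lists were also higher in 3 of 3 pairs, and their part in the level of Ptprb was not tested. Tek was read at 124, 83.0 and 171 FPKM and at 178, 88.4 and 167 FPKM (log2 fold change 0.19, interval -0.67 to 1.05, or -0.20 to 0.59 with the block). Tie1 was read at 153, 117 and 154 FPKM and at 181, 105 and 172 FPKM (log2 fold change 0.08, interval -0.51 to 0.67, or -0.27 to 0.42 with the block). For all 3 genes, the library numbered 2 was the lowest of each genotype. The limma adjusted p was 0.962 for Ptprb, 0.969 for Tek and 0.985 for Tie1.

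Angpt1 was read at 1.10, 0.913 and 1.46 FPKM in loxP/loxP and at 1.20, 1.05 and 1.36 FPKM in iΔEC/iΔEC libraries (log2 fold change 0.04, interval -0.31 to 0.38, limma adjusted p = 0.988). With the replicate block its interval was -0.29 to 0.36. Angpt2 was read at 42.1, 42.7 and 6.36 FPKM and at 31.9, 59.8 and 27.5 FPKM. Its log2 fold change of 0.68 had the widest interval of the 5 genes, -1.05 to 2.40 (limma adjusted p = 0.963), or -0.51 to 1.86 with the replicate block. The loxP/loxP replicate 3 lay far under the rest, and without that library the value was -0.18. These intervals do not show that the genotypes are alike.

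The log2 ratio of Ptprb to Tek was higher by 0.19 in iΔEC/iΔEC libraries. The FPKM ratios were 0.924, 0.781 and 0.818 in loxP/loxP and 0.979, 0.948 and 0.954 in iΔEC/iΔEC libraries, so the groups did not overlap, at the smallest exact permutation p that this design allows (p = 0.1, adjusted p = 0.3 over 3 ratios). The log2 ratios of Angpt2 to Angpt1 and Tie1 to Tek differed by 0.64 (exact permutation p = 0.8) and -0.12 (exact permutation p = 0.6). In the marker lists 0 genes were called, and the list means differed by -0.73 (epithelial) to 0.29 (venous), each with an adjusted exact permutation p of at least 0.75. By replicate number, iΔEC/iΔEC was higher in 3 of 3 pairs for the endothelial (mean difference 0.28), aerocyte (0.27) and general capillary (0.17) lists. It was lower in 3 of 3 pairs for the epithelial (-0.73), neutrophil (-0.47), mural (-0.25) and mesothelial (-0.09) lists. With single libraries left out, the differences without pairing were -0.97 to -0.45 for the epithelial, -0.86 to -0.04 for the neutrophil, -0.39 to -0.11 for the mural and 0.19 to 0.42 for the endothelial list, with the neutrophil value nearest to 0 without iΔEC/iΔEC replicate 1. They were 0.11 to 0.42 for the aerocyte, -0.02 to 0.38 for the general capillary and -0.09 to -0.08 for the mesothelial list. For each of these 7 lists the exact sign-flip permutation p was 0.25, the smallest that 3 pairs can give. The summed endothelial markers were 2635 to 3386 FPKM in loxP/loxP and 2988 to 4248 FPKM in iΔEC/iΔEC libraries. In the pathway lists 0 genes were called, and the list medians lay between -0.04 for the sheddases and 0.30 for the angiopoietin-like genes, besides 0.19 for the 5 genes described.

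In all 4 groups the receptors and the phosphatase were above Angpt2 and Angpt2 was above Angpt1, although the tables were normalized separately and dose and genotype differ between the experiments. In LPS libraries the means were 129 FPKM for Tie1, 119 for Tek, 90.5 for Ptprb, 20.2 for Angpt2 and 1.53 for Angpt1. In loxP/loxP libraries they were 142, 126, 106, 30.4 and 1.16 FPKM, and in iΔEC/iΔEC libraries 153, 145, 139, 39.7 and 1.20 FPKM, in the same order of genes. Within each group the means of the neighbours Tie1, Tek and Ptprb lay within their spread of each other. By library, the FPKM ratio of Ptprb to Tek was 0.859 to 1.06 in saline and 0.523 to 0.911 in LPS. It was 0.781 to 0.924 in loxP/loxP and 0.948 to 0.979 in iΔEC/iΔEC, so Ptprb was under Tek in every library that received LPS. Angpt2 was above Angpt1 in every one of the 16 libraries.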

How the data were processed

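RNA-seq libraries of bead-isolated pulmonary ECs (4 saline, 6 LPS, 3 Fgfr1 loxP/loxP and 3 Fgfr1 iΔEC/iΔEC libraries) were sequenced by the authors on an Illumina NovaSeq. They aligned reads to GRCm38/mm10 with HISAT2 (2.0.5), counted them on genes with featureCounts (1.5.0-p3) and deposited FPKM for 54532 genes per experiment. The annotation release and strandedness are not given in the sources used here. FPKM multiplied by gene length gave whole reads (within 0.05 of a read) for at least 99.996% of values, and the deposited FPKM were within 0.182% of median-of-ratios scaling, which was applied. Reads are not independent molecules, and counting error alone is known from them.

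Log2(FPKM + 1) was compared within each experiment with limma (3.58.1, R 4.3.3, intensity trend), keeping genes that averaged 0.5 FPKM or more. The study's threshold of an adjusted p at or under 0.05 was used, without its limit on the fold change. The scripts were tested on simulated data. Ratios and marker lists were tested by exact permutation, two-sided (scipy 1.17.1), and adjusted by Benjamini-Hochberg over 3 ratios or 15 lists. Tables and figures used Python 3.11.15, numpy 2.4.6, pandas 2.3.3 and matplotlib 3.10.9. Nothing in the labels says that libraries came from separate mice, so p-values measure the spread between libraries, which may be partly technical. No library was a copy of another (mean chi-square between replicates at least 5.06).

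The genes and lists were chosen with earlier results of these data known. Named were all 5 genes, Fgfr1, Mcph1, up to 3 called genes with the largest rise and fall in each pathway list, and the 3 most alike genes, except for some genes that are not reported here; Svep1, Ptprc and the general capillary markers, markers named for their level and Gm17473 were added after their values were seen. Ccl21a matched 2 rows and was left out. In the second experiment, deviations of same-numbered libraries correlated in all 3 pairs (r = 0.248, 0.178 and 0.187), and the study used littermates, so the numbers were taken to pair the libraries. The main fit and the tests of ratios did not use these pairs. Intervals with the replicate block are given beside those of the main fit. Alternatives were another pseudocount, other filters, other scalings, limma without the trend, limma-voom on recovered reads, a replicate block and leaving out each library; a sign-flip test of the marker lists over pairs and the spread without LPS replicate 1 were added after the data were seen. The authors' own comparison with DESeq2 was not used.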

Additional observations from a re-analysis of the deposited data

Results flagged for a closer look

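In groups of 4 to 10 libraries, 46 groups of values were examined for a library far from the others, and 8 were found, where chance gives 2.3 (1 in 20). The groups share libraries and are not independent, so 8 beside 2.3 is not a test. LPS replicate 1 accounted for 4 of the 8. It had 10.23 FPKM of Angpt2 where the other LPS libraries had 19.76 to 26.39 FPKM, and 72.66 FPKM of Tie1 where they had 119.5 to 155.5 FPKM. Its mean log2(FPKM + 1) was 3.959 over the aerocyte markers and 5.963 over the general capillary markers, against 4.951 to 5.481 and 6.597 to 6.871 in the other LPS libraries.

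Saline replicate 3 accounted for the other 4. It had 1.603 FPKM of Angpt1 where the other saline libraries had 4.593 to 5.476 FPKM, and a log2 ratio of Ptprb to Tek of -0.2189 where they had 0.03647 to 0.08813. Its mean log2(FPKM + 1) was 1.582 over the lymphocyte markers and 2.209 over the fibroblast markers, against 3.351 to 3.608 and 2.696 to 2.772 in the other saline libraries.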

How the results depend on the processing

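Under LPS, 4 of 5 genes were called lower by limma in every alternative run except scaling on the endothelial markers, in which the called genes were Ptprb, Tek and Tie1 (lower) and Angpt2 (higher, 0.92), and Angpt1 was at -0.64. That scaling moved the median of all genes to 0.38, and scaling on total reads moved it to -0.15. Calls over all genes numbered 7928, or 2779 where a limit of 1 was set on the size of the log2 change. They split into 3570 higher and 4295 lower with quantile normalization and 5585 and 1164 with the endothelial scaling. Leaving out each library gave -1.27 to -0.83 for Angpt1, 0.10 to 0.71 for Angpt2, -1.30 to -1.03 for Tek, -1.13 to -0.91 for Tie1, -1.79 to -1.49 for Ptprb and 6708 to 8372 calls. The log2 ratio differences were 0.96 to 1.98 for Angpt2 to Angpt1, 0.08 to 0.18 for Tie1 to Tek and -0.50 to -0.33 for Ptprb to Tek, and the first and the last passed only without saline replicate 3. The venous list ranged from -0.22 to 0.28 and was -0.14 with scaling on total reads, where the lymphatic list was -0.018. The endothelial, neutrophil and fibroblast lists lost their calls without most single libraries (adjusted exact permutation p up to 0.0893, 0.0893 and 0.119), and the leukocyte, macrophage, platelet, aerocyte, general capillary and arterial lists without saline replicate 1, 2 or 4 (up to 0.0595). Without a saline library a list could pass only if at least 8 of the 15 lists reached the smallest p, and the differences of these 6 lists stayed within 1.5 times.

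Between the genotypes, directions turned without any call. Angpt1 was -0.0013 with scaling on total reads, and with the endothelial scaling Angpt1 was -0.12, Tek -0.088 and Tie1 -0.20 (median of all genes -0.21). Leaving out each library gave -0.046 to 0.14 for Angpt1, -0.18 to 1.11 for Angpt2, -0.075 to 0.51 for Tek, -0.066 to 0.32 for Tie1 and 0.07 to 0.71 for Ptprb. The ratios ranged from -0.31 to 1.15 for Angpt2 to Angpt1 and from -0.30 to 0.021 for Tie1 to Tek, and the lists from -0.019 to 0.32 (platelet), -0.017 to 0.38 (general capillary), -0.39 to 0.22 (macrophage), -0.56 to 0.0071 (leukocyte), -0.29 to 0.10 (fibroblast), -0.050 to 0.33 (lymphatic) and -0.30 to 0.080 (arterial). The causes were not tested.

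With the replicate block, Ptprb between the genotypes was 0.39 (limma adjusted p = 0.622), and the block changed no call of the 5 genes in either experiment. In the first experiment, same-numbered libraries did not deviate together (r from -0.209 to 0.0972), so they share only a number, and the block moved the calls over all genes from 7928 to 5999. Depth limits Angpt1 and Angpt4, which rest on few reads.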
